A study of Mus musculus with 2 samples.

Results

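Choroid plexus epithelial cells were described in single-cell transcriptomes of the mouse dura mater. They are the secretory cells of the brain ventricles and are not part of the dura. A barcode was counted as such a cell if it held at least 50 unique molecular identifiers (UMIs) of Ttr, at least 3 UMIs of Folr1, Kl and Enpp2 together, and fewer than 5 UMIs of C1qa, C1qb and C1qc together. It also had to hold at least 200 genes and at most 10% mitochondrial UMIs. These counts chose the cells, so the levels of all genes against other barcodes are given as a description and support nothing by themselves. The rule took 69 of 7559 retained barcodes.

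The study asked how the dura differs once venous outflow through the jugular veins is blocked. The JVL-14 group held female mice 14 days after ligature of the jugular veins, and the sham group held female mice after sham surgery, with the time since that surgery not stated. In both groups mice were perfused, the peeled dura was digested with enzymes, cells of 2 meninges were combined per well, and viable singlets were sorted. Each group has 1 library, loaded with 20000 cells, and the number of mice was not given in the sources used here, so no difference between the groups has a replicate check.

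The choroid plexus is a fold of epithelium and vessels in each brain ventricle. Its epithelial cells make most of the cerebrospinal fluid by moving sodium, chloride, bicarbonate and water across the cell, and they carry vitamins and hormones between blood and fluid. They are rich in mitochondria, bear tufts of cilia, and release transthyretin, the product of Ttr, which binds thyroid hormone. The ranges in parentheses are 95% intervals from the counts, which cover counting error and leave out the spread between cells and between mice.

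All 69 choroid plexus cells came from the sham library. JVL-14 held 0 of 2608 retained barcodes (0% to 0.141%), and the floor of 3 counts is a share of 0.115%. Sham held 69 of 4951, a share of 1.39% (1.09% to 1.76%). Taken at that floor, and leaving out the interval of the sham share, the JVL-14 share was 0.0825 times the sham share. At the share of sham, 36.3 such cells would have been counted in JVL-14. The highest Ttr count of any JVL-14 barcode was 6 UMIs. Depth was alike, with a median of 4716 UMIs per retained barcode in JVL-14 and 4717 in sham, from 18796260 and 33996641 UMIs in all. The libraries shared 2 barcode sequences, and none was a choroid plexus cell. With 1 library per group, the surgery and the library cannot be told apart.

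**Figure D1:**
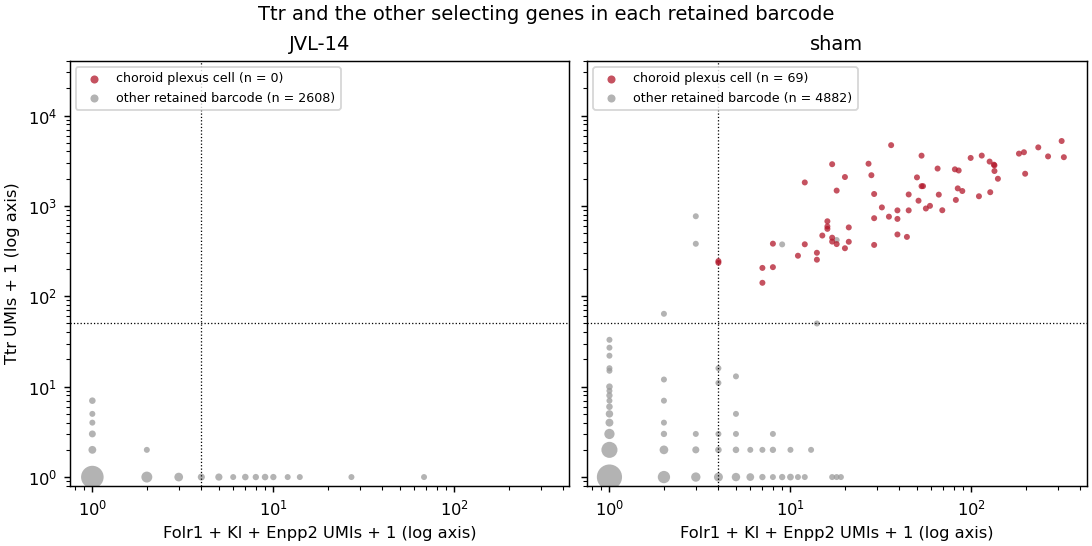
Ttr UMIs against summed Folr1, Kl and Enpp2 UMIs per retained barcode on log axes with 1 added, for JVL-14 (left) and sham (right); point size grows with the number of barcodes and dotted lines mark the limits of 50 and 3 UMIs. The 69 red choroid plexus cells lie above both limits with Ttr counts of 140 or more, few other sham barcodes lie beside or among them, and the JVL-14 panel holds none.

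Few barcodes lay near the limits. The 5 lowest Ttr counts among the choroid plexus cells were 140, 205, 209, 234 and 244 UMIs. Just outside, 1 barcode had 49 Ttr UMIs with 13 UMIs of the other selecting genes, and 5 barcodes with at least 50 Ttr UMIs were not taken. Of these, 3 fell short on Folr1, Kl and Enpp2 (63, 380 and 767 Ttr UMIs) and 2 held C1q transcripts of macrophages (374 and 418 Ttr UMIs with 43 and 20 C1q UMIs). Among the choroid plexus cells, 63 had no C1q UMI and the others had 1. None was among the 279 sham barcodes in the top 5% of Scrublet doublet scores. Scrublet's own threshold marked only 0.121% of sham barcodes, too few to have worked, so its scores do not show the cells to be single.

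The cells varied widely in depth and in how much of it was Ttr. They held 896 to 28189 UMIs (median 6472) and 373 to 4837 genes (median 1849). Ttr had 140 to 5221 UMIs per cell (median 1277) and made up 0.748% to 62.7% of a cell's UMIs (median 26.7%). Over all 69 cells together it was 21.5% of UMIs (21.4% to 21.6%), against 0.0100% in the other 4882 sham barcodes. Enpp2, whose product autotaxin makes the signalling lipid lysophosphatidic acid, had 2 to 305 UMIs per cell (median 35). Folr1, a folate receptor, had 0 to 19 UMIs (median 2), with a UMI in 60 of 69 cells. Kl, the klotho co-receptor, had 0 to 20 UMIs (median 2), with a UMI in 61 of 69 cells.

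Markers that the rule did not use were also present. Otx2, a homeobox transcription factor needed for choroid plexus formation, had a UMI in 40 of 69 cells and 0 to 14 UMIs per cell (median 1). Sostdc1, a secreted antagonist of BMP and Wnt signals, had a UMI in 55 cells, as did Kcne2, a potassium channel subunit. Kcnj13, an inwardly rectifying potassium channel of the apical membrane, had a UMI in 51 cells, Clic6 in 53, Prlr in 52 and Htr2c in 45. Free RNA can add single UMIs. For comparison, the share of other sham barcodes with a UMI was lowest for Htr2c (0.0819%) and Kcne2 (0.164%). Among these genes it was highest for Otx2 (1.70%) and Clic6 (1.93%), at a median of 4674 UMIs per barcode. Of the 5 markers of the label only Otx2 was not used by the rule, so the detection of the others was set at least in part by the choice.

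A selection by 6 other markers overlapped in large part. Barcodes with at least 5 UMIs of Otx2, Kcnj13, Clic6, Sostdc1, Calml4 and Prlr together numbered 28 in JVL-14 and 133 in sham. In sham 62 barcodes were in both sets, which is 89.9% of the choroid plexus cells and 46.6% of the barcodes chosen by the other markers. The 71 sham barcodes outside carried mainly Otx2 and Calml4 (253 and 352 UMIs), and 24 of them held Tph1 and 19 held Slc47a1. The 28 JVL-14 barcodes held no Ttr UMI at all, with 104 Calml4, 75 Otx2, 57 Sostdc1 and 10 Kcnj13 UMIs among them. Of the barcodes with at least 3 UMIs of Kcnj13, Sostdc1 and Kcne2 together, choroid plexus cells were 0 of 15 in JVL-14 and 54 of 65 in sham.

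The 30 genes furthest above the other sham barcodes were ranked by log2 ratio with 0.5 added to each count, so the order can differ from that of the plain ratios given here. Levels are UMIs per 1000000 UMIs of the group (CPM), and a library of this kind counts each molecule once, at its 3′ end, whatever its length. Ttr stood at 215272 CPM in choroid plexus cells and 100 CPM in other sham barcodes, a ratio of 2151 (2076 to 2230). Kcne2 followed at 344 and 0.289 CPM (ratio 1194, 615 to 2654). Next in that order came Prr32 at 225 and 0.224 CPM (1003, 471 to 2550) and Htr2c, the serotonin 2C receptor, at 211 and 0.224 CPM (ratio 942, 442 to 2398). Ins2, an insulin gene, had 50 UMIs in 26 choroid plexus cells and a ratio of 1017 (329 to 5099). Defb11, a beta-defensin, had a ratio of 786 (384 to 1869).

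Lower in the ranking stood Kl (ratio 532, 362 to 811), Sostdc1 (460, 355 to 606), Kcnj13 (366, 251 to 550), Enpp2 (353, 325 to 383) and Folr1 (228, 176 to 298). Ppp1r1b, a phosphatase inhibitor known as DARPP-32 in neurons, stood at 524 and 2.12 CPM (ratio 248, 189 to 330). Mt3, a metal-binding metallothionein, was spread over 67 of 69 cells at 3325 and 21.2 CPM (ratio 157, 144 to 172). Slco1c1, a thyroid hormone transporter, had a ratio of 147 (97.6 to 227), Prlr, the prolactin receptor, of 91.1 (72.7 to 114), and Maob, monoamine oxidase B, of 44.2 (33.7 to 57.8). The ranking also held the ciliary genes Drc7 (101, 67.7 to 153) and Ccdc113 (50.03, 33.7 to 73.9). It ended with Smim22 at 43.7 (35.3 to 53.9).

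Promoters are shown for Kcnj13 and Kl as genes of this ranking, and for Ccdc113 as the only one in which a motif was found. The motif was TAATCC, the core sequence bound by Otx-type homeobox proteins, searched on both strands (GGATTA on the other) in the 250 bases before each start of the RefSeq promoter table, build GRCm38.p6. Of the 30 genes, 20 were matched by symbol, with 24 starts, and 1 start held the motif. In all, 2054 of 32851 windows held it (6.25%). Capitals mark the motif, which begins 129 bases before the start of Ccdc113. A match is a description of letters and not a binding site.
Kcnj13, chr1:87394730-87394979, minus strand: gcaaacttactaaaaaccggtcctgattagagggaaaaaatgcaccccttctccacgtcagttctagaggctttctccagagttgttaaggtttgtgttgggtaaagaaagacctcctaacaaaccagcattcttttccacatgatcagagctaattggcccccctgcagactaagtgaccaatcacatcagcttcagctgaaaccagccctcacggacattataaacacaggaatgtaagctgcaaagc
Kl, chr5:150952357-150952606, plus strand: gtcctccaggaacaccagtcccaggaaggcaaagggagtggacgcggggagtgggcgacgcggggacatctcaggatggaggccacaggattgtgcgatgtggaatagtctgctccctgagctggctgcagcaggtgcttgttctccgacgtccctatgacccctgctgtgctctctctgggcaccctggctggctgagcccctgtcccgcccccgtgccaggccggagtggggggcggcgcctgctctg
Ccdc113, chr8:95533850-95534099, plus strand: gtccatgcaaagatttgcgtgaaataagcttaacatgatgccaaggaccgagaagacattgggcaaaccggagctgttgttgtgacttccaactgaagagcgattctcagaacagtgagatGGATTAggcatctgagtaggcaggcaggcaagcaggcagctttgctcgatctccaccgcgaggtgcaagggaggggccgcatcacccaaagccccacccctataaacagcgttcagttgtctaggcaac

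By level alone, the transcriptome was dominated by Ttr and then by housekeeping and respiratory chain genes. Enpp2 stood at 7928 CPM, Fth1, the ferritin heavy chain, at 6083 CPM, Ppia, a peptidyl-prolyl isomerase, at 4900 CPM and Cox8a, of cytochrome c oxidase, at 4691 CPM. Fth1 was close to the 6491 CPM of the other sham barcodes (ratio 0.937, 0.904 to 0.971), whereas Dbi, an acyl-CoA-binding protein, stood at 3080 and 327 CPM (ratio 9.43, 8.93 to 9.94). Gpx4, the glutathione peroxidase that removes lipid peroxides, stood at 2683 and 528 CPM (ratio 5.08, 4.81 to 5.37).

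Across all genes the choroid plexus cells were more often below than above the other sham barcodes. Of 4653 genes measured (at least 20 UMIs in the choroid plexus cells, or in the others scaled to the same total), 918 (19.7%) were at least 2-fold higher and 1605 (34.5%) at least 2-fold lower, at a median log2 ratio of -0.28. Since Ttr fills 21.5% of their UMIs, the CPM of every other gene is lowered. With Ttr left out of the totals, 1258 were higher and 1364 lower, and the median moved by 0.35 to 0.07. The counts of gene lists below are to be read against these shares, and the rule that chose the cells used the same contrast.

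**Figure D2:**
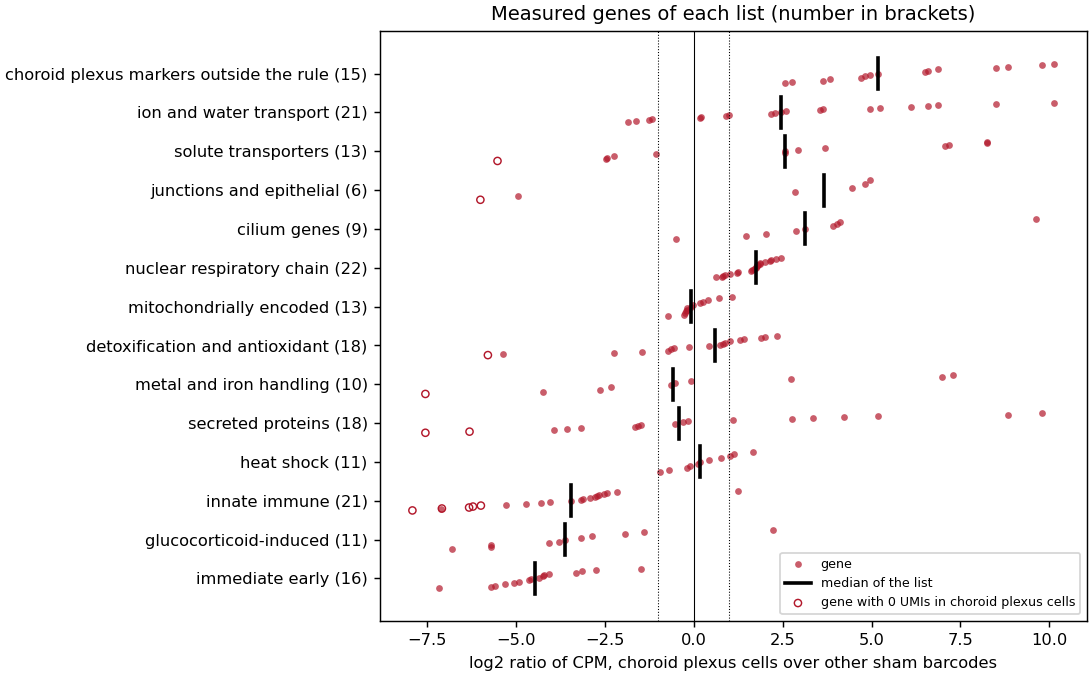
Log2 ratio of CPM, choroid plexus cells over other sham barcodes, for each measured gene of 14 lists, with 0.5 added to each count; black bars mark list medians, dotted lines a 2-fold difference, and open circles genes with 0 UMIs in the choroid plexus cells. Medians run from -4.47 for immediate early genes to 5.19 for choroid plexus markers outside the rule.

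Of 18 choroid plexus markers outside the rule, 15 were measured and all 15 were at least 2-fold higher, with a median log2 ratio of 5.19. Calml4, a calmodulin-like protein, stood at 1057 and 37.5 CPM and had a UMI in 63 of 69 cells. Cab39l, a partner of the kinases that set ion transport, stood at 961 and 31.01 CPM, and F5, coagulation factor V, at 202 and 5.55 CPM. The smallest ratios were those of Slc13a4, a sulphate transporter (5.83, 4.02 to 8.22), and Igfbp2, a binding protein of insulin-like growth factors (6.82, 6.09 to 7.61). Aqp1, the water channel of this epithelium, was not measured by the same limit, with 17 UMIs at 33.3 and 36.0 CPM, and Wfikkn2 had 6 UMIs and Lmx1a 9.

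Genes of fluid secretion were mostly higher. Of 29 ion and water transport genes, 21 were measured, 13 higher and 4 lower, and the median log2 ratio was 2.45. The bicarbonate carriers Slc4a5 (78.3 and 0.802 CPM, ratio 97.7, 57.8 to 168) and Slc4a2 (102 and 18.8 CPM, ratio 5.43, 4.00 to 7.21) were higher. So were the carbonic anhydrases Car12 (64.6 and 0.930 CPM, ratio 69.5, 40.9 to 119), Car2 (924 and 79.1 CPM, ratio 11.7, 10.6 to 12.9) and Car14 (ratio 4.46, 3.27 to 5.97). The cation channels Trpm3 (ratio 37.9, 32.8 to 43.8) and Trpv4 (12.2, 7.15 to 19.9) and the kinase Stk39, which acts on chloride cotransporters (6.01, 5.29 to 6.81), were higher too.

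The sodium-potassium-chloride cotransporter and a beta subunit of the sodium pump stood within 2-fold of the other sham barcodes. Slc12a2, that cotransporter, had 125 and 112 CPM (ratio 1.12, 0.858 to 1.43), and Atp1b1, that beta subunit, 752 and 406 CPM (1.85, 1.67 to 2.05), which passed 2-fold with Ttr left out of the totals (2.36, 2.13 to 2.61). Fxyd1, a regulator of the pump, stood at 830 and 171 CPM (ratio 4.84, 4.38 to 5.35). Lower were Slc4a10, a sodium-driven bicarbonate carrier (86.1 and 198 CPM, ratio 0.434, 0.315 to 0.584, and 0.553, 0.402 to 0.744 without Ttr in the totals), Wnk1, a kinase upstream of Stk39 (0.320, 0.216 to 0.457), and the beta subunit Atp1b2 (0.258, 0.104 to 0.533). With Ttr left out, 15 of the 21 were higher and 2 lower.

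Solute transporters were found on both sides. Of 27, 13 were measured, 8 higher and 5 lower, and the median log2 ratio was 2.56. Carriers of lactate (Slc16a8, 43.1 and 0.128 CPM, ratio 336, 114 to 1340), monoamines (Slc29a4, 92.0 and 0.289 CPM, ratio 319, 154 to 740) and zinc (Slc39a12, 52.8 and 0.385 CPM, ratio 137, 67.3 to 298) were high and sparse, with 22 to 47 UMIs each. Slc22a17, a receptor for lipocalin 2, stood at 440 and 34.2 CPM (ratio 12.9, 11.1 to 14.9), and Slc31a1, which imports copper, at 233 and 30.6 CPM (7.61, 6.24 to 9.22). Lower were Slc23a2, a vitamin C carrier (ratio 0.176, 0.110 to 0.266), the endocytic receptor Lrp1 (0.180, 0.122 to 0.256) and the efflux pump Abcg2 (0.199, 0.0910 to 0.379). Abcb1a, the efflux pump of the blood-brain barrier, had 0 UMIs and was at least 7.67-fold lower, by the limit of 3 counts over the group that is used for every such gene. Slc46a1, the proton-coupled folate carrier that works with Folr1, had 7 UMIs.

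Secreted proteins went both ways. Of 25, 18 were measured, 7 higher and 8 lower, and the median log2 ratio was -0.43. Clu, clusterin, stood at 822 and 44.0 CPM (ratio 18.7, 16.7 to 20.9), Spint2, a protease inhibitor, at 513 and 49.99 CPM (10.3, 8.96 to 11.7), and Ecrg4, a precursor of a secreted peptide, at 2642 and 1224 CPM (2.16, 2.04 to 2.28). Cst3, the protease inhibitor cystatin C, was high in both, at 2012 and 5943 CPM (ratio 0.339, 0.318 to 0.360), as was Apoe, a lipid carrier, at 1298 and 3619 CPM (0.359, 0.332 to 0.387). Trf, transferrin, stood at 129 and 189 CPM (0.683, 0.528 to 0.870). Penk, which encodes enkephalins, and Cp, the copper-binding ferroxidase ceruloplasmin, had 0 UMIs and were at least 13.2-fold and 31.3-fold lower. Igf2, a growth factor reported from choroid plexus, had 12 UMIs in 9 cells and at most 3 in 1 cell.

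Vitamin A genes were few: 4 of 11 were measured, 2 higher and 2 lower. Rdh5, a retinol dehydrogenase, stood at 339 and 23.7 CPM (ratio 14.3, 12.1 to 16.9). Rbp4, the secreted retinol carrier that binds transthyretin, had 0 UMIs in the choroid plexus cells and 10.8 CPM in the others. Stra6, its receptor, had 11 UMIs.

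Keratins and some junction genes of epithelia were high. Of 19 genes 6 were measured, 4 higher and 2 lower. The keratins Krt18 (436 and 15.6 CPM, ratio 27.9, 23.7 to 32.8) and Krt8 (125 and 5.74 CPM, ratio 21.8, 16.1 to 29.2) were higher, as were the tight junction genes Ocln (30.5, 17.9 to 50.8) and Cldn1 (7.10, 4.23 to 11.3). Cldn2, a claudin of the choroid plexus, had 16 UMIs at 31.3 and 0.770 CPM (ratio 40.7, 20.2 to 79.8), below the limit for a measured gene. The epithelial adhesion genes Epcam and Cdh1 and the endothelial claudin Cldn5 had 0 UMIs, and Epcam was at least 10.7-fold lower.

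Genes of motile cilia were present. Of 26, 9 were measured, 8 higher and 0 lower, and the median log2 ratio was 3.12. Rsph1, of the radial spoke, stood at 313 and 19.1 CPM (ratio 16.4, 13.7 to 19.6), Dynlrb2, a dynein light chain, at 211 and 12.4 CPM (17.1, 13.7 to 21.2), and Tekt1, a protein of ciliary microtubules, at 70.5 and 4.75 CPM (14.8, 10.0 to 21.5). Foxj1, the regulator of motile ciliogenesis, had 14 UMIs in 13 cells and Gmnc, which starts multiciliation, 10 UMIs in 8 cells. Ependymal cells, which line the ventricles, share such genes. Of their 10 markers 7 had a UMI and 4 were measured, 3 of them higher (Ak7, Tekt1 and Cfap126, which are also in the cilium list) and Rarres2 lower (0.0910, 0.0366 to 0.188). Tmem212, Ccdc153 and Sntn were at 0 UMIs. The whole list made up 0.0270% of UMIs, with 0% to 0.112% per cell (median 0.0194%), against 0.0175% in the other sham barcodes.

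Transcription factors of choroid plexus development were partly detected. Of 17, 5 were measured, 3 higher and 0 lower. Otx2 stood at 262 and 10.0 CPM (ratio 26.2, 21.2 to 32.2), Sox9 at 153 and 28.0 CPM (5.45, 4.26 to 6.87), and Msx1 at 266 and 57.7 CPM (4.61, 3.84 to 5.49). Otx1 had 9 UMIs in 9 cells and Lmx1a 9 in 9. Hox genes of the hindbrain (8 of 8) and the forebrain regulators Emx2 and Lhx2 had 0 UMIs, and Emx1 had 7 UMIs in 5 cells. At 510973 UMIs in all, a gene with 0 UMIs is only bounded, so the ventricle of origin was not detectable from these genes at this depth.

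Most nuclear genes of the respiratory chain were higher. Of 22, all were measured, 18 were higher and 0 lower, and the median log2 ratio was 1.74, and together they stood at 35020 CPM, against 10380 CPM in the other sham barcodes. Ndufa1, of complex I, stood at 1253 and 230 CPM (ratio 5.45, 5.02 to 5.91), Cox7b, of complex IV, at 1628 and 327 CPM (4.98, 4.64 to 5.35), and Sdhd, of complex II, at 129 and 84.1 CPM (1.54, 1.18 to 1.96). In the summed counts, the 13 genes encoded by the mitochondrion itself did not share this difference. They stood at 19570 and 22619 CPM together, with a median log2 ratio of -0.08 (0.27 with Ttr left out of the totals), and 1 of 13, mt-Nd6, was at least 2-fold higher (2.08, 1.53 to 2.77). These sums join cells with unlike mitochondrial shares. The median share was 0.172% in the 31 cells under 1% and 4.77% in the 38 at 1% or more. In the other sham barcodes it was 2.26%.

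Detoxification and metal-handling genes were uneven. Of 18 measured antioxidant genes, 6 were higher and 4 lower. The mitochondrial superoxide dismutase Sod2 (407 and 110 CPM, ratio 3.69, 3.20 to 4.25) and the epoxide hydrolase Ephx1 (3.98, 2.79 to 5.53) were higher, and the secreted peroxidase Gpx3 was lower (0.0232, 0.0120 to 0.0405). Of 10 measured metal genes 3 were higher and 4 lower. Steap1, of a family of metal reductases, stood at 114 and 0.898 CPM (ratio 126, 79.2 to 206), whereas the metallothionein Mt1 stood at 362 and 1830 CPM (0.198, 0.170 to 0.229) and Mt2 at 11.7 and 241 CPM (0.0488, 0.0179 to 0.106), in contrast to Mt3. Hsph1, a heat shock chaperone, stood at 119 and 37.6 CPM (ratio 3.17, 2.41 to 4.11), and 3 of 11 measured chaperones were higher and 0 lower.

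Immediate early, glucocorticoid-induced and innate immune transcripts were mostly low against all other sham barcodes. All 16 immediate early genes, which respond within minutes to stimulation and to tissue handling, were at least 2-fold lower (median log2 ratio -4.47), among them Fos at 45.0 and 2229 CPM (ratio 0.0202, 0.0128 to 0.0303) and Jun at 35.2 and 1433 CPM (0.0246, 0.0146 to 0.0388). Of 11 measured glucocorticoid-induced genes 10 were lower (median -3.63), with Tsc22d3 at 11.7 and 671 CPM and Fkbp5 at 7.83 and 79.0 CPM. The exception was Sgk1, a kinase that raises sodium transport, at 685 and 147 CPM (ratio 4.65, 4.16 to 5.18) and with a UMI in 57 of 69 cells. Of 21 measured innate immune genes 20 were lower (median -3.45, and -3.41 with genes at 0 set at their bound). Isg15, induced by interferon, had 0 UMIs and was at least 40.4-fold lower, and Il1b at least 22.7-fold lower. Vcam1, a leukocyte adhesion molecule, was the exception at 135 and 57.4 CPM (ratio 2.35, 1.82 to 2.99). Of 8 measured receptors 2 were higher, Htr2c and Prlr, and 5 lower, among them the interferon gamma receptor Ifngr1 (0.159, 0.0889 to 0.262) and the tumour necrosis factor receptor Tnfrsf1a (0.191, 0.0823 to 0.376).

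A few cells carried a large part of the immune transcripts. After the values were seen, 4 cells were set apart that had at least 10 Malat1 UMIs, 10 Cd74 UMIs or 100 Hbb-bs UMIs. One held 296 Cd74 UMIs, of the MHC class II invariant chain, with 104 of H2-Ab1, 210 of Malat1 and 140 of Ttr among 18713 UMIs. Another held 306 UMIs of the haemoglobin gene Hbb-bs among 1546 UMIs, and the other two held 61 and 60 Malat1 UMIs. Counts of Malat1, Cd74 and Hbb-bs chose these cells, so their shares of those genes are not given as a result. They held 71.5% of the UMIs of the innate immune list, but that list includes Cd74, which made up 297 of their 570 UMIs of it. This share is thus partly set by the choice. They held 40.7% of the UMIs of the immediate early list, with 73.9% for Fos, 44.4% for Jun and 17.0% for Jund. Without them the immediate early median was -5.97 and the innate immune median -5.17, and 16 and 20 genes were again at least 2-fold lower.

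Malat1, a long RNA that stays in the nucleus, was low in the choroid plexus cells. It had a median of 103 CPM per cell, against 21141 CPM in other sham barcodes and 31798 CPM in those with at least 3000 UMIs. It was under 1000 CPM in 64 of 69 choroid plexus cells (92.8%, 83.9% to 97.6%), against 25.9% (24.7% to 27.1%) of the others and 10.5% (9.42% to 11.6%) of the deeper ones. Mitochondrial UMIs were scarce as well in many: 31 of 69 cells (44.9%, 32.9% to 57.4%) had under 1%, against 19.0% (17.9% to 20.1%) of the others. Both held in 29 cells (42.0%), against 7.78% of the other sham barcodes. The part of this state in the low immediate early, glucocorticoid and immune levels was not tested.

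**Figure D3:**
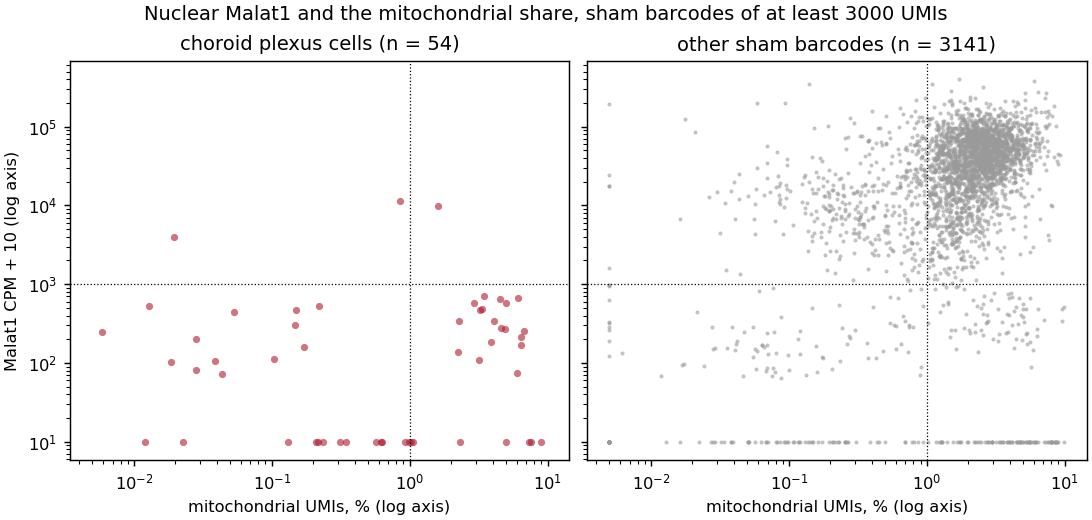
Malat1 CPM with 10 added against the percentage of mitochondrial UMIs, both on log axes, for sham barcodes with at least 3000 UMIs: 54 choroid plexus cells (left) and 3141 others (right). Dotted lines mark 1000 CPM and 1%, and barcodes with few or no mitochondrial UMIs are drawn at the left edge. Nearly all choroid plexus cells lie below the Malat1 line, on both sides of 1%.

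Among the choroid plexus cells the mitochondrial share ran from 0.00591% to 9.60% (median 1.61%), and gene groups varied with it. To compare cells at one depth, 3000 UMIs were drawn from each, which left 54 cells. Secreted protein genes then had 1 to 82 UMIs per cell (median 34.5), solute transporters 0 to 18 (median 4), cilium genes 0 to 21 (median 8) and nuclear respiratory chain genes 34 to 186 (median 99). Over the 54 cells the Spearman correlation with the mitochondrial percentage was 0.70 for secreted proteins, 0.67 for solute transporters and 0.43 for ion transport. It was -0.59 for cilium genes, -0.63 for the nuclear respiratory chain, -0.66 for metal handling and 0.01 for junction genes. With 1500 UMIs drawn, which keeps more cells, solute transporters were at 0.44 and cilium genes at -0.38. All points share 1 library, shares of a fixed total trade off against each other, and the percentage itself had a correlation of -0.42 with depth.

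Single genes showed the same division. Enpp2 had 0 to 96 UMIs per 3000 (median 18) and a correlation of 0.82, and Ttr had one of 0.58. Chaperones of the endoplasmic reticulum, where secreted proteins fold, had Hspa5 at 0.79, Hsp90b1 at 0.71, Pdia3 at 0.60 and Calr at 0.53. At the other end stood the cytosolic chaperone Hspa8 (-0.67), Mt3 (-0.66), Eif1, of translation initiation (-0.64), Dbi (-0.62), Ubb, a ubiquitin gene (-0.59), and Ppia (-0.56). Of 484 genes with a mean of at least 0.7 UMI, 35 had a correlation above 0.4 and 97 below -0.4.

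The same correlations were computed in other cells of the library. Over 578 sham barcodes with at least 3 Slc47a1 UMIs, the correlation was 0.01 for secreted proteins, 0.02 for solute transporters, 0.04 for the nuclear respiratory chain, 0.01 for Hspa5 and -0.19 for Hspa8. Of all 612 such barcodes, before UMIs were drawn, few had a low mitochondrial share (4.41% under 1%). Over 39 barcodes with Tph1 the values were -0.04, 0.11, -0.14, 0.11 and -0.46 for the same 5. Over these 39 ion transport stood at 0.39, cilium genes at -0.36 and Ubb at -0.70. Enpp2 stood at 0.09, but it had only 3 UMIs in the 51 barcodes from which these came, so its value cannot show a relation. Solute transporters were sparse there too, at 385 CPM against 1534 CPM in choroid plexus cells. No test of the differences was made.

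**Figure D4:**
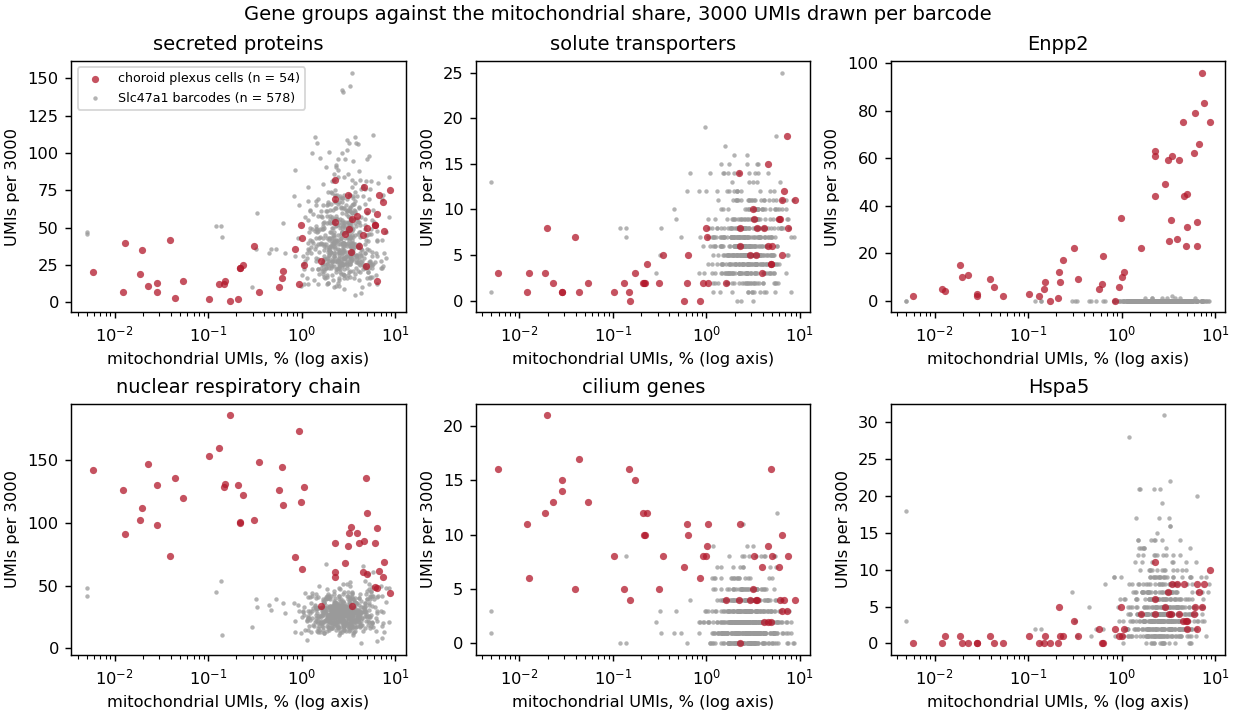
UMIs per 3000 drawn UMIs of 4 gene lists and 2 genes in each barcode, against the percentage of mitochondrial UMIs on a log axis; red points are 54 choroid plexus cells and grey points 578 Slc47a1 barcodes of the same library. Secreted protein, transporter, Enpp2 and Hspa5 counts are low in red points at the left, and respiratory chain and cilium counts are high there.

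The division can be put as 2 ranges, with the limit of 1% chosen after the values were seen and 12 of 69 cells lying between 0.5% and 2%. The 31 cells under 1% had medians of 8645 UMIs and 2525 genes, and the 38 cells at 1% or more of 5740 UMIs and 1261.5 genes. Of 3017 genes measured between them, 951 (31.5%) were at least 2-fold higher and 249 (8.25%) at least 2-fold lower in the cells under 1%, with a median log2 ratio of 0.71. Ttr and mitochondrial genes fill a larger part of the cells at 1% or more. With both left out of the totals, 292 were higher and 385 lower, and the median was 0.20.

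Genes of secretion and transport were lower in the cells under 1% by either total. Of 14 measured secreted protein genes 0 were higher and 10 lower (median -1.79), and with the reduced totals 0 and 11 (median -2.30). Enpp2 stood at 2321 CPM in cells under 1% and 16118 CPM in the others (ratio 0.144, 0.133 to 0.156), Ttr at 127851 and 342963 CPM (0.373, 0.368 to 0.377), and Ctsd, a lysosomal protease, at 106 and 915 CPM (0.115, 0.0767 to 0.168). Slc12a2 stood at 36.3 and 255 CPM (0.142, 0.0669 to 0.275), Kcnj13 at 175 and 669 CPM (0.261, 0.187 to 0.361) and Prlr at 185 and 679 CPM (0.272, 0.196 to 0.373). Of 10 measured solute transporters 8 were lower and 0 higher, and of 19 ion transport genes 11 lower and 2 higher.

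Cilium genes and Cdkn1c went the other way. Of 9 cilium genes 6 were higher and 1 lower in cells under 1% (median 1.44), and 4 and 1 with the reduced totals. Rsph1 stood at 432 and 140 CPM (ratio 3.09, 2.06 to 4.80) and Dynlrb2 at 297 and 86.7 CPM (3.42, 2.05 to 6.04). With the reduced totals these ratios were 2.18 (1.45 to 3.37) and 2.41 (1.44 to 4.25). Cdkn1c, a cell cycle inhibitor, stood at 739 and 169 CPM (4.38, 3.06 to 6.45; 3.08, 2.15 to 4.54 with the reduced totals). Otx2 stood at 333 and 159 CPM (2.10, 1.40 to 3.21), but its interval held 1 with the reduced totals (1.47, 0.986 to 2.25). Kcne2 stood at 303 and 405 CPM, with an interval that held 1 (0.750, 0.552 to 1.02) and one below 1 with the reduced totals (0.527, 0.388 to 0.718). Of 22 nuclear respiratory chain genes 4 were higher and 0 lower in cells under 1% (median 0.74, against 0.71 for all genes). With the reduced totals 0 were higher and 0 lower (median 0.24, against 0.20). Of 7 metal handling genes 3 were higher and 3 lower, and 0 and 3 with the reduced totals (median 0.03). The negative correlations of these 2 lists were thus not matched by 2-fold higher genes with the reduced totals. What sets the range of a cell was not tested.

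Summed markers of most other cell types were lower than in the other sham barcodes, except those of the arachnoid barrier and of ependymal cells. The arachnoid barrier list made up 0.205% of UMIs (0% to 0.669% per cell, median 0.223%) in 68 of 69 cells, against 0.0616%. Of its UMIs 820 were Ptgds, a prostaglandin synthase, and 223 Krt18, while Slc47a1 had 2, Cldn11 and Dpp4 1 each, and Cdh1 0. Of its 4 measured genes 2 were higher and 2 lower, and their median log2 ratio of -1.30 differs in sign from the summed level. Fibroblast markers made up 0.00920% of UMIs (0% to 0.0760% per cell, median 0%), against 0.628% in other sham barcodes, with Lum at 0. Macrophage markers made up 0.00665% (0% to 0.139%), against 0.469%, with Csf1r, Mrc1 and Cd14 at 0. The rule left out barcodes with more than a few C1q UMIs, so this macrophage level is partly set by the choice. Endothelial markers had 12 UMIs in all, with Pecam1, Cdh5 and Emcn at 0, and were found in 10 cells. Glial markers had 29 UMIs in 21 cells (0.00568%, against 0.0223%), of which 20 were Aldoc, an aldolase of astrocytes, at 39.1 and 8.05 CPM (ratio 4.86, 2.92 to 7.67), and 9 Mbp, while Aqp4, Gfap, Slc1a2 and Mobp were at 0. Haemoglobin genes and Alas2 made up 0.100%, with 25.5% in 1 cell and a median of 0.0260%, against 3.60%. Skeletal muscle markers made up 0.00705%, against 0.467%, neuron markers 0.00470% against 0.0965%, pineal markers 0.00274% against 0.0225%, and granulocyte and lymphocyte markers 0.00587% against 2.44%.

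Proliferation was near the limit of detection. Of 12 cell cycle genes 7 were measured and 6 were lower, with Mki67, Top2a, Birc5, Ube2c, Pclaf and Rrm2 at 0 UMIs and at least 6.74-fold to 12.8-fold lower. Pcna had 26 UMIs in 18 cells. Of 16 clock genes 3 were measured, with Per1 (0.358, 0.171 to 0.660) and Bhlhe40 (0.345, 0.207 to 0.540) lower and Clock at 1.12 (0.714 to 1.67).

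Among barcodes of the sham library, 2 groups share genes with the choroid plexus cells. The first, 612 barcodes with at least 3 Slc47a1 UMIs, expressed the barrier genes Slc4a10 (685 CPM) and Abcb1a (149 CPM). Of the other arachnoid barrier markers, Cldn11 stood at 219 CPM, against 90.2 CPM in all sham barcodes other than choroid plexus cells. Ptgds stood at 325 CPM, against 317 CPM. Krt18 (0.307 CPM), Dpp4 (1.53 CPM) and Cdh1 (3.22 CPM) were scarce. As these markers went both ways, the barcodes are called by their rule. Choroid plexus cells over these barcodes were at least 2-fold higher in 876 of 4631 genes (18.9%) and lower in 1677 (36.2%). Against them 19 of 22 respiratory chain genes were higher and 0 lower, 13 of 23 measured ion transport genes were higher and 5 lower, and 8 of 14 solute transporters were higher and 6 lower. Slc12a2 was lower (125 and 217 CPM, ratio 0.578, 0.443 to 0.743), and Ecrg4, with a UMI in nearly all barcodes of both groups, stood at 2642 and 3083 CPM (0.857, 0.811 to 0.906).

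The second group, 51 barcodes with at least 3 Tph1 UMIs and fewer than 3 of mast cell genes, carried Asmt (161 CPM), of melatonin synthesis, and the photoreceptor genes Crx (173 CPM) and Pde6g (3932 CPM), all 3 at 0 UMIs in choroid plexus cells. Otx2 stood at 262 CPM in choroid plexus cells and 233 CPM in these barcodes (ratio 1.13, 0.891 to 1.42), and Krt18 at 436 and 121 CPM (3.62, 2.82 to 4.68). Choroid plexus cells were at least 2-fold higher in 722 of 4695 genes (15.4%) and lower in 1782 (38.0%). The nuclear respiratory chain stood at 35020 and 31837 CPM, with 1 of 22 genes higher and 0 lower. Ion transport genes were higher in 18 of 22 and lower in 3, and secreted protein genes higher in 12 of 15 and lower in 1. Of 15 measured choroid plexus markers outside the rule 13 were higher and 0 lower, while against the Slc47a1 barcodes all 15 were higher. Calml4 and Cab39l had a UMI in 68.6% and 66.7% of these Tph1 barcodes. Of 9 measured innate immune genes 7 were higher and 0 lower, the other way round from the comparison with all other sham barcodes. Without the 4 cells set apart above, 6 were measured, 4 higher (B2m, Bst2, Ifitm3 and Vcam1) and 1 lower, and Cd74, H2-Ab1 and H2-K1 were not among those higher. Malat1 was under 1000 CPM in 52.9% (38.5% to 67.1%) of these barcodes. All 87 barcodes with at least 3 Tph1 UMIs include mast cells, with the mast cell protease gene Cpa3 at 3302 CPM, and over these the choroid plexus cells were higher in 693 of 4697 genes (14.8%) and lower in 1743 (37.1%).

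Ttr was also found outside the choroid plexus cells, and far more in sham. It stood at 2.91 CPM (2.15 to 3.85) in the JVL-14 barcodes and 100 CPM (96.6 to 104) in the other sham barcodes, a ratio of 0.0291 (0.0215 to 0.0386). A Ttr UMI was found in 0.920% (0.590% to 1.37%) of JVL-14 and 14.99% (14.0% to 16.03%) of other sham barcodes, and in 0.373% and 3.72% with 1000 UMIs drawn from each. In sham 9 barcodes held 20 or more Ttr UMIs, and without them Ttr stood at 31.8 CPM there, with a ratio of 0.0915 (0.0672 to 0.122). Ttr was thus lower in JVL-14 with and without those barcodes.

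Of the other selecting genes, Kl was also lower in JVL-14 outside the cells, with 4 UMIs there, and the interval of Folr1 held 1. Enpp2 was slightly lower only against all other sham barcodes. Enpp2 stood at 19.6 CPM in JVL-14 and 22.5 CPM in other sham barcodes (ratio 0.872, 0.763 to 0.996), Folr1 at 3.15 and 2.44 CPM (1.29, 0.892 to 1.86) and Kl at 0.238 and 0.930 CPM (0.256, 0.0653 to 0.728). Without the sham barcodes of 20 or more Ttr UMIs, the Enpp2 interval held 1 (0.918, 0.802 to 1.05) and Kl stayed lower (0.296, 0.0749 to 0.857). Kcne2 had 0 and 9 UMIs, Kcnj13 21 and 32 UMIs (ratio 1.22, 0.667 to 2.18), and Sostdc1, at 6.48 and 2.08 CPM, was higher in JVL-14 (3.11, 2.27 to 4.29), where 5 barcodes held 42.2% of them. Genes of other tissues also differed: Acta1, of skeletal muscle, had 26.5 CPM in JVL-14 and 2111 CPM in other sham barcodes, Prl, of the pituitary, at 11.1 and 28.5 CPM, and Tph1 at 48.7 and 77.1 CPM. In JVL-14 5 barcodes held 98.0% of the Acta1, 86.0% of the Prl and 70.3% of the Tph1 UMIs. The part of these genes in the difference in choroid plexus cells was not tested.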

How the data were processed

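Dura mater of female mice was profiled in 1 droplet library per group, JVL-14 and sham. Per the file headers, the deposited UMI counts per gene and barcode were written by Cell Ranger 8.0.0 and are not normalised. The build was mm39 per the submitters' processing notes; the annotation was not given in the sources used here. Barcodes as deposited (3004 in JVL-14 and 5495 in sham) each had at least 500 UMIs. Barcodes under 200 genes (244 and 266) or over 10% mitochondrial UMIs (152 and 278) were left out. The 26 repeated symbols were resolved to the gene with more UMIs.

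UMIs were summed over cells and scaled to 1000000 (CPM). Shares carry exact Clopper-Pearson intervals, levels exact Poisson intervals and ratios exact conditional binomial intervals, all for counting error only. Since each group has 1 library, there is no p-value. The ratio step was tested on simulated data. Scrublet (scanpy 1.11.5) marked 0.230% of JVL-14 and 0.121% of sham barcodes by its own threshold, too few to have worked, so doublets were not removed and the top 5% of scores served as an alternative. Cells were thinned without replacement, to 3000 UMIs among choroid plexus cells (15 left out) and 1000 between libraries. The calculations used numpy 2.4.6, scipy 1.17.1 and pandas 2.3.3.

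Named genes were the 5 markers, members of 34 gene lists with at least 20 UMIs in the choroid plexus cells, taken as the highest or lowest ratios, the 30 genes with the highest ratio among those with at least 50 UMIs and a UMI in 25% of cells, the 15 with the highest CPM and the 15 most variable. Other genes of the lists are named by their known role, after their values were seen. Totals without Ttr, or without Ttr and mitochondrial genes, were also chosen after seeing the data. The cells, lists and tests were chosen with earlier results of these data known.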

Additional observations from a re-analysis of the deposited data

How the results depend on the processing

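No paired analysis was possible because each group has 1 library. Of the comparisons with other settings, 247 counts and shares stayed within 1.5 times or within the counting interval and 21 moved. The secreted protein median changed sign in 3 settings given here, and the innate immune median in 1. With other limits in the selecting rule, every JVL-14 count was 0 and sham counts ran from 53 to 72. By the 6 other markers, 28 JVL-14 and 133 sham barcodes were taken, 1684 genes were higher and 5 secreted protein genes lower (median log2 ratio 0.19, against -0.43). With no minimum beyond 1 UMI, 2530 genes were higher and 6632 lower, with 15 cilium genes and 17 solute transporters higher. In settings chosen after seeing the data, the cells at 1% or more mitochondrial UMIs had 331 genes higher and 740 lower, 3 cilium genes higher and 5 secreted protein genes lower (median 0.56). The cells under 1% had 945 genes lower, and 8 ion and 5 solute transport genes higher. Against the 51 Tph1 barcodes without mast cell genes, 8 immediate early genes, 1 glucocorticoid-induced gene, 0 innate immune genes (of 9 measured, median 2.17; 1 of 6, median 1.12, without 4 cells rich in Malat1, Cd74 or Hbb-bs) and 1 secreted protein gene (median 1.80) were lower, and 1 respiratory chain gene was higher. With 500 UMIs drawn, 2.21% of other sham barcodes held a Ttr UMI. Fewer or other cells and genes enter these settings, and the cause was not tested further. Of single-gene levels 71 moved past the counting interval and 168 did not, and of 50 correlations 4 moved, among them solute transporters (0.44) and cilium genes (-0.38) with 1500 UMIs drawn. The depth limits genes with few UMIs: a gene at 0 among 510973 UMIs is only bounded.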
